A study of Homo sapiens with 12 samples.

Results

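Replication-dependent histone genes encode the core histones H2A, H2B, H3 and H4 and the linker histone H1 that package newly made DNA. They were taken as every row of the count matrix whose identifier maps to the symbols H1-1 to H1-6, H2AC, H2BC, H3C or H4C with a number, and that held at least 10 counts over the 12 libraries. This gave 61 genes of 32269 rows, with 4 genes for H1, 15 for H2A, 17 for H2B, 13 for H3 and 12 for H4. A further row that fitted the names, H4C6, held 6 counts and stayed out, whereas H2BC3 and H2BC14 held 10 each and were just inside.

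The libraries came from 2 human gastric cancer cell lines, AGS, labelled as epithelial cells of a gastric adenocarcinoma, and MKN1, labelled as a gastric adenosquamous carcinoma, both given as wild type and grown in RPMI-1640 medium. Each line was sequenced untreated and after treatment with cantharidin sodium, a salt of the beetle toxin cantharidin, which inhibits the protein phosphatases PP2A and PP1. Each of the 4 groups had 3 libraries, which the design text calls biological replicates, while dose and treatment time are not stated in those sources. Library totals ran from 28604966 to 51604215 counts, and the share of counts from mitochondrial genes was 8.23% to 9.65% in AGS and 4.42% to 6.08% in MKN1. The keratin genes KRT8, KRT18 and KRT19 made up most of the epithelial marker sum, which lay between 4092.3 and 6615.7 CPM (counts scaled to the total of the library) in the 12 libraries. KRT8 and KRT18 were called higher in untreated MKN1 (log2 0.58 and 0.37, edgeR adjusted p = 0.00929 and 0.0305). KRT19 was not called (log2 0.18, edgeR adjusted p = 0.289). The other measured epithelial markers were lower in untreated MKN1: EPCAM had a mean of 428.8 CPM in untreated AGS and 21.8 CPM in untreated MKN1, CLDN4 224.7 and 12.6 CPM, and TFF1 3.68 and 0.308 CPM (edgeR adjusted p = 7.22e-11, 3.36e-08 and 0.000133). The squamous marker genes summed to under 1 CPM in every AGS library and to at least 1462.1 CPM in every MKN1 library. Log2 CPM of MKN1 untreated replicate 3 correlated with the other untreated MKN1 libraries at 0.979 and 0.981, below every other pair of replicates, which lay at 0.9845 or above, and the line difference below called 35 histone genes without that library and 36 with it. CDX1 and GKN1 of the epithelial list were not analysed here. Blood marker genes summed to between 8.98 and 25.1 CPM in untreated AGS, chiefly haemoglobin, and to between 0.0839 and 0.129 CPM in treated AGS. In MKN1 they summed to between 7.17 and 16.6 CPM untreated, with CD14 at a mean of 6.31 CPM, and to between 6.99 and 8.95 CPM treated. Their part in the results was not tested.

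As background, these genes sit in clusters and are transcribed together as a cell enters S phase, with the coactivator NPAT at the cluster promoters. Their pre-mRNAs have no introns as a rule, and they end in a conserved stem-loop instead of a poly(A) tail. The stem-loop is bound by SLBP, and the U7 small nuclear RNP directs the cut just downstream of it. Some of these genes also give longer transcripts with a poly(A) tail, mostly described in differentiated or non-cycling cells. The libraries were made from mRNA, so the levels below stand for polyadenylated or carried-over transcripts and not for the total histone mRNA of the cells. In bulk RNA, fewer cells of a kind and less RNA per cell cannot be told apart.

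The transcript models of GENCODE release 29 were searched for the stem-loop, and genes were classed by the models that hold it. A spliced model that leaves the stem-loop out did not count, so the extended class may miss genes annotated further downstream. H2BC5, classed by a model that ends 39 bases after it, and H2BC11, with none, have gene spans well beyond their exon lengths of 871 and 950 bases. Of the 61 genes, 23 had a model that ran more than 100 bases past a stem-loop, 8 had a model that ended within 100 bases of it, and 30 had no stem-loop in any model. In 27 of those 30 the model length was a multiple of 3, so that these models may hold the coding part alone. The stem-loops are shown for 6 genes whose levels the results turn on or that carry a variant form, each as the 16 bases of the stem-loop in capitals with 5 bases on either side, as DNA letters of the transcript.
H2AC6: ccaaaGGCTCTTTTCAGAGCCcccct
H2BC5: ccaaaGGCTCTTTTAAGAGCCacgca
H2AC11: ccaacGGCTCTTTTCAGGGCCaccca
H3C6: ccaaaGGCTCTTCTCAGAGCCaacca
H4C8: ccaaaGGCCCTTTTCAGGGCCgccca
H4C15: ccaaaGGCCCTTTTTAGGGCCgacca
The form printed for H2AC6 was shared by 17 of the 31 genes with a stem-loop, the form of H2BC5 by 4, the form of H4C8 by 5 H4 genes and the form of H4C15 by 3 H4 genes. The forms of H2AC11 and H3C6 were found in those genes alone among the 61.

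The 61 genes summed to 50.6, 54.2 and 52.1 CPM in untreated AGS and to 381.0, 383.6 and 379.7 CPM in untreated MKN1. All 3 untreated MKN1 libraries were above all untreated AGS libraries, and the ratio of the means was 7.30. After treatment the sums were 62.7, 53.3 and 58.9 CPM in AGS and 262.7, 380.0 and 466.2 CPM in MKN1. The treated libraries overlapped the untreated ones in both lines. By family, treated AGS lay above untreated AGS without overlap for H4 (12.0 to 13.3 against 9.05 to 9.63 CPM) and H2A (13.3 to 15.7 against 11.6 to 12.1 CPM), sums for which no test was run. These rises lay mainly in single genes and not across the families. Mean H2AC6 went from 5.01 to 8.99 CPM, whereas H2AC18 fell from 2.35 to 1.57 and H2AC19 from 2.38 to 1.62 CPM. H4C14 went from 2.31 to 3.70 CPM and H4C15 from 2.38 to 4.15 CPM, and these near copies may hold the same reads. The 3 treated MKN1 libraries were spread the widest, at 369.6 ± 102.1 CPM (SD, n = 3).

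**Figure D1:**
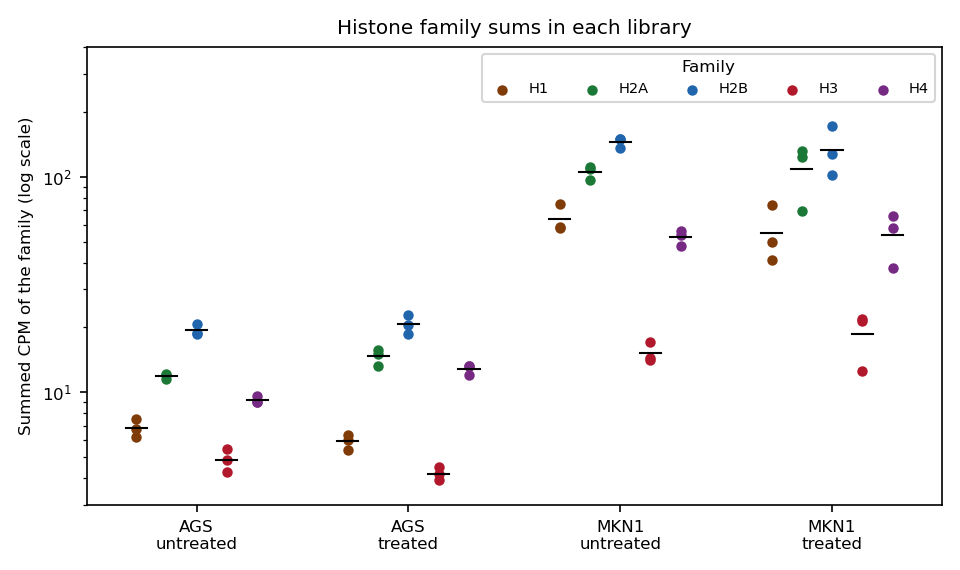
Summed CPM of the genes of each histone family (log axis) in the 12 libraries, with 1 point per library and a black line at the group mean. Every family sits higher in untreated MKN1 than in untreated AGS, by 3.13 times for H3 and by 9.35 times for H1. The H4 and H2A sums of treated AGS lie above those of untreated AGS without overlap, by 1.39 and 1.23 times. The difference lies mainly in H4C14 and H4C15 for H4 and in H2AC6 for H2A.

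Linker histone genes summed to 6.82 ± 0.662 CPM (SD, n = 3) in untreated AGS and to 63.7 ± 9.60 CPM in untreated MKN1, a ratio of 9.35. The ratio was 8.86 for the H2A family, 7.43 for H2B, 5.67 for H4 and 3.13 for H3. The H3 genes therefore made up 9.20% of the histone counts in untreated AGS and 4.02% in untreated MKN1. A few genes carried most of the counts: H2AC6 held 15.6% of all counts of the 61 genes, H1-2 14.9%, H2BC12 11.4%, H2BC21 9.05% and H2BC5 6.47%. At the other end, 21 genes had totals of 10 to 57 counts and did not pass the filter on low counts, with 0.615% of the histone counts between them, and the other 40 genes had totals of 73 to 13266. The 21 genes together held 142 counts in untreated AGS and 144 in untreated MKN1.

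Counts and annotated ends went together. Genes with a model beyond the stem-loop had a median of 1117 counts over the 12 libraries and took 55.9% of the histone counts. Genes whose model ended close to the stem-loop had a median of 279.5 counts, and genes with no stem-loop in the model a median of 29. Of the 23 extended models, 18 held the letters of a poly(A) signal hexamer (AATAAA or ATTAAA) somewhere after the stem-loop. The search set no limit on the distance from the transcript end. How often stretches of such length hold the hexamer by chance was not tested. All 23 genes passed the filter, against 7 of 8 and 10 of 30 in the other classes. The sources used here do not name the annotation behind the counts, and how far longer models collected more reads was not tested. H1-2 and H2BC12, which have only coding-length models of 642 and 381 bases in GENCODE, were among the genes with the most counts. Per kilobase of that exon length, H2BC12 had 120 CPM and H1-2 98.0 CPM in untreated MKN1, H2AC6 36.6 CPM and H2BC21 15.3 CPM. The extended class made up 51.4% of the histone counts in untreated AGS and 53.9% in untreated MKN1.

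**Figure D2:**
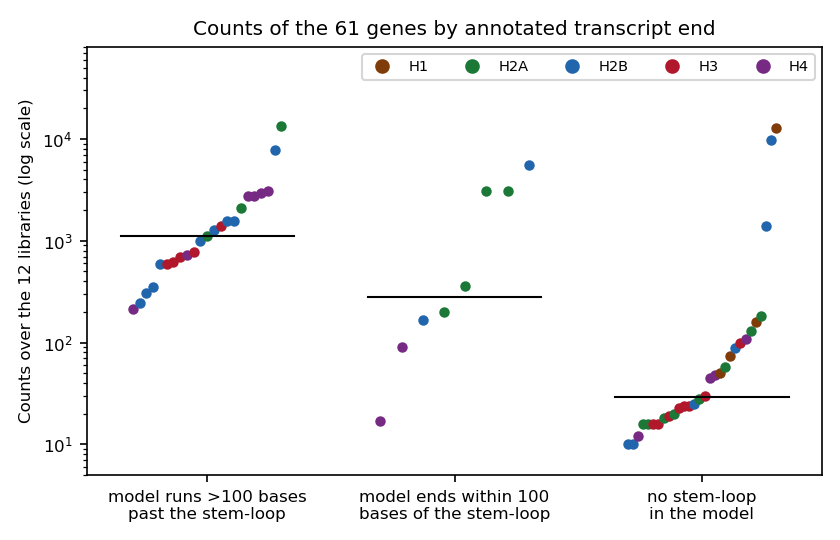
Counts over the 12 libraries (log axis) of each of the 61 genes, by how far its annotated models run past a stem-loop. Points are coloured by family, with a black line at the class median (1117, 279.5 and 29 counts). The class with no stem-loop in the model holds nearly all genes under 60 counts, and also H1-2 and H2BC12, its highest points.

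The comparison of the untreated lines asks where the histone genes differ before any treatment. Of the 40 genes tested with edgeR's quasi-likelihood test and Benjamini-Hochberg adjustment over 20280 genes, 35 were higher in untreated MKN1 and 1 was lower. Over all genes tested, 66.3% were called, 34.9% higher and 31.4% lower. The median log2 difference was 2.49 for the 40 genes and 0.04 for all genes. The filter ran over all 4 groups, and with the AGS groups fitted alone 27 histone genes passed it. Some of the 40 genes, such as H2AC25, thus entered through their MKN1 counts, which favours genes high in MKN1 in this count and median. Without the filter, where all 61 genes were tested, 34 were called higher and 1 lower, against 25% and 24.4% of 28531 genes, and none of the 21 genes of low counts was called. By library ranges, 35 of the 40 tested genes had all untreated MKN1 libraries above all untreated AGS libraries and 1 had them below, against 36.8% and 34.6% of all tested genes. Over all 61 genes the ranges were above in 39, below in 2 and overlapping in 20. The 2 untreated groups also enter the treatment comparisons, so these are not independent of each other. They also differ in line, and whatever else differed between the cultures of the lines cannot be told apart from it.

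**Figure D3:**
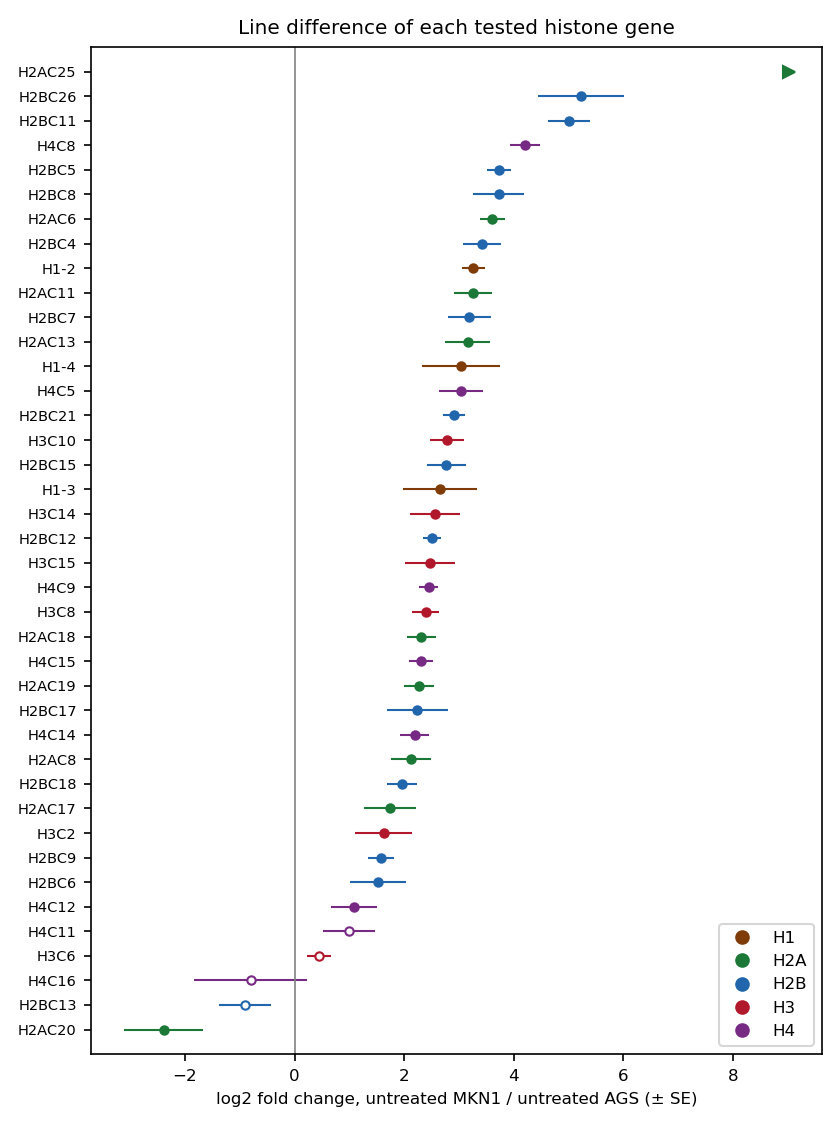
Log2 fold change of untreated MKN1 over untreated AGS with its SE for the 40 tested genes, coloured by family. Filled points passed an adjusted p of 0.05 and open points did not, and the arrow marks H2AC25 at its lower bound. Of the 40 genes, 35 lie right of 0 as filled points or the arrow, and H2AC20 alone lies left of 0 as a filled point.

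Among the linker histones, which bind the DNA between nucleosomes, H1-2 stood at 6.06, 6.28 and 7.31 CPM in untreated AGS and at 57.9, 57.3 and 73.6 CPM in untreated MKN1. It was 9.61-fold higher in MKN1 (log2 3.26, SE 0.21, edgeR adjusted p = 1.83e-08), with no overlap. H1-4 and H1-3 were low in both lines. H1-4 gave 0, 0.0571 and 0.103 CPM in AGS and 0.272, 0.401 and 0.613 CPM in MKN1, and it was higher in MKN1 (log2 3.05, SE 0.71, edgeR adjusted p = 0.00204). H1-3 was also higher, by 2.65 on the log2 scale (SE 0.67, edgeR adjusted p = 0.00349), on 5 counts in untreated AGS and 25 in untreated MKN1.

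Of the H2A genes, H2AC6 held the most counts, with 4.51, 5.57 and 4.95 CPM in untreated AGS and 65.9, 60.5 and 56.7 CPM in untreated MKN1. That was a 12.2-fold difference (log2 3.61, SE 0.23, edgeR adjusted p = 1.78e-08). H2AC25, an H2A gene that lies on chromosome 1 apart from the main cluster of chromosome 6, had no count in the 3 untreated AGS libraries, and 12.3, 13.5 and 11.9 CPM in untreated MKN1. With 1117 counts there against a floor of 3 counts over the AGS group (0.0240 CPM), it was at least 519-fold higher in MKN1. Treated AGS held 4 counts of H2AC25.

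H2AC18 and H2AC19 gave 3069 and 3068 counts over the 12 libraries. Their transcript models are near copies of each other, with 100% and 96.8% of their 100-base windows shared, so the counts of either may hold reads of the other. Both were higher in untreated MKN1, H2AC18 by 2.31 on the log2 scale (SE 0.26, edgeR adjusted p = 4.73e-06). H2AC20 was the exception among the 40 genes. It gave 0.945, 0.485 and 0.821 CPM in untreated AGS and 0, 0.0365 and 0.368 CPM in untreated MKN1. It was lower in MKN1 by a log2 fold change of -2.39 (SE 0.72, edgeR adjusted p = 0.00992), and 97 counts in AGS stood against 13 in MKN1.

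In the H2B family 13 of 14 tested genes were higher in untreated MKN1. H2BC12 gave 7.68, 8.14 and 8.29 CPM in untreated AGS and 46.1, 50.4 and 41.1 CPM in untreated MKN1, a 5.70-fold difference (log2 2.51, SE 0.16, edgeR adjusted p = 1.94e-08). Its model shares 28.4% of its 100-base windows with a gene that has an identifier only. H2BC21 gave 4.98, 4.37 and 4.00 CPM in AGS and 33.0, 33.6 and 34.1 CPM in MKN1, a 7.53-fold difference (log2 2.91, SE 0.20, edgeR adjusted p = 2.85e-08). H2BC5 gave 1.67, 2.74 and 2.08 CPM against 31.7, 28.4 and 25.6 CPM, the smallest adjusted p of the family (13.3-fold, log2 3.73, SE 0.23, edgeR adjusted p = 1.10e-08). None of these 3 genes had overlapping libraries. H2BC11 showed a wide gap from a low start, with 0.335, 0.257 and 0.154 CPM in AGS and 7.88, 9.66 and 7.08 CPM in MKN1 (32.0-fold, log2 5.00, SE 0.38, edgeR adjusted p = 1.03e-07). H2BC13 was the H2B gene that was not called, at 0.433, 0.914 and 0.257 CPM against 0.204, 0.365 and 0.276 CPM (edgeR adjusted p = 0.111).

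The H3 family differed least as a sum, and H3C6, the H3 gene with the most counts, differed least of the 40 genes. H3C6 gave 2.15, 2.40 and 2.80 CPM in untreated AGS and 3.50, 2.73 and 3.74 CPM in untreated MKN1, ranges that overlapped (log2 0.44, SE 0.23, edgeR adjusted p = 0.0974). H3C10 and H3C8 were both called higher in MKN1. H3C10 gave 0.571, 0.600 and 0.436 CPM against 3.70, 3.43 and 3.95 CPM (log2 2.78, SE 0.31, edgeR adjusted p = 3.42e-06). H3C8 gave 0.531, 0.685 and 0.539 CPM against 2.44, 3.17 and 3.58 CPM (log2 2.39, SE 0.24, edgeR adjusted p = 1.55e-06). H3C14 and H3C15, whose models share all of their 100-base windows, were higher in MKN1 by 2.56 and 2.48 on the log2 scale.

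Of 8 tested H4 genes 6 were higher in untreated MKN1. H4C9 gave 2.54, 2.34 and 2.92 CPM in AGS and 13.5, 15 and 14.1 CPM in MKN1 (5.45-fold, log2 2.45, SE 0.18, edgeR adjusted p = 5.63e-08). H4C8 was under 1 CPM in each untreated AGS library, at 0.748, 0.542 and 0.641 CPM, and at 11.8, 12.5 and 11.6 CPM in MKN1 (18.4-fold, log2 4.20, SE 0.27, edgeR adjusted p = 2.20e-08). H4C15 and its near copy H4C14 showed smaller gaps. H4C15 stood at 2.40, 2.51 and 2.23 CPM against 10.6, 11.7 and 13.1 CPM (log2 2.31, SE 0.22, edgeR adjusted p = 8.44e-07). H4C11 and H4C16 were not called. H4C11 (log2 1.00, edgeR adjusted p = 0.0823) shares 77.7% of its 100-base windows with H4C12, and H4C12 shares 100% with H4C11. H4C12 was called higher, with overlapping libraries (log2 1.08, SE 0.43, edgeR adjusted p = 0.0386). The counts of either may hold reads of the other. H4C16, the only gene of the 61 on chromosome 12, ranged from 0.231 to 0.787 CPM in untreated AGS and from 0.0365 to 0.747 CPM in untreated MKN1.

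Neighbouring genes that are read away from each other share the stretch between their start sites. Pairs of these genes were kept up to a set limit of 250 bases between RefSeq start sites. This gave 9 pairs, 222 to 247 bases apart, and pairs further apart were not considered. In the promoter table of RefSeq (GRCh38.p14, 250 bases before to 50 after each start), 56 of the 61 genes had an entry. The motif CCAAT, bound by the factor NF-Y, was found on either strand in 47 of the 56 promoters, against 34.6% of 35116 promoters of the same length. TATAAA was found in 37 of 56 against 11.5%, and the octamer ATTTGCAT, bound by the factor OCT1, in 24 of 56 against 1.77%. The octamer was in 13 of 17 H2B and 10 of 14 H2A promoters, and in no H1 or H4 promoter with an entry. CCAAT was in all H1, H2A, H2B and H3 promoters with an entry and in 1 of 10 H4 promoters. AAACACA, the H1 box motif, was in 4 of 4 H1 promoters and in 5.64% of all promoters. The motifs were searched as those letters on both strands, and a match is a description and not a binding site. The 18 genes of the 9 pairs share their upstream bases, so a motif between the start sites counts for each gene of the pair. An octamer lay in 7 of these 9 stretches and a CCAAT in all 9, so the promoters counted are not all separate sequences.

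The sequences between the start sites are shown for 3 pairs, because their genes showed the lowest AGS level, line differences in opposite directions and the most counts. They are on the plus strand of GRCh38.p14, with the CCAAT motif, the octamer and the TATA motif in capitals on either strand.
H2AC25/H2BC26, chr1:228457874-228458102: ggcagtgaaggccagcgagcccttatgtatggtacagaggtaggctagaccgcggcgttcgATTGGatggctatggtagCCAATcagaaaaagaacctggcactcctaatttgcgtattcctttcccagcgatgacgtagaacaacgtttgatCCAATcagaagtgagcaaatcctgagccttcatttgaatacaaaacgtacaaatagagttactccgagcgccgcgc
H2BC21/H2AC20, chr1:149886683-149886917: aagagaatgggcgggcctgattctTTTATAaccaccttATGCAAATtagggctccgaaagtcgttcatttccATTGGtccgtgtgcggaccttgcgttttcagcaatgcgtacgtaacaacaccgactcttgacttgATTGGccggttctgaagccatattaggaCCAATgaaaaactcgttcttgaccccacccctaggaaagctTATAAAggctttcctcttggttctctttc
H2BC4/H2AC6, chr6:26123927-26124171: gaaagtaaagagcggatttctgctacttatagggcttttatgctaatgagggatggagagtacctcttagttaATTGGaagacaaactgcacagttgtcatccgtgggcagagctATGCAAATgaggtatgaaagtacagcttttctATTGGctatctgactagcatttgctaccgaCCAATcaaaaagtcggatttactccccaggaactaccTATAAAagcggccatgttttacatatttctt
The upstream bases of H1-2 are shown on its own minus strand because it held the most counts of the H1 genes, with the H1 box and the CCAAT motif in capitals on either strand.
H1-2, chr6:26056471-26056720: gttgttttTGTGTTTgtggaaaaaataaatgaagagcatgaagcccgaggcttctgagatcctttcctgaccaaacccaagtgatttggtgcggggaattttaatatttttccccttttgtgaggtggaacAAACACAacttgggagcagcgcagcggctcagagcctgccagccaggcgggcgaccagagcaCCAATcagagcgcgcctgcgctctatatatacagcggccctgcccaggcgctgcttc
Between H2AC25 and H2BC26 there were 3 CCAAT and no exact octamer or TATA motif, whereas the other printed pairs held 3 CCAAT, 1 octamer and at least 1 TATA motif.

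In 7 of the 9 pairs both genes were tested. H2AC25 and H2BC26 were both at or near 0 in untreated AGS: H2BC26 gave 0, 0.114 and 0 CPM there and 1.12, 1.09 and 1.84 CPM in untreated MKN1 (log2 5.23, SE 0.78, edgeR adjusted p = 5.71e-05, on 4 and 123 counts). H2BC4 gave 0.669, 0.657 and 0.641 CPM against 9.88, 7.40 and 3.98 CPM, and like H2AC6 it was higher in MKN1 (log2 3.43, SE 0.35, edgeR adjusted p = 1.54e-06). H2BC21 and H2AC20 are read from either end of a stretch of 235 bases and were called in opposite directions, higher by 2.91 and lower with -2.39 on the log2 scale. The pair H2BC13 and H2AC13 also differed in its calls, with H2BC13 not called and H2AC13 higher in MKN1 by 3.16 on the log2 scale. A test of the difference between the genes of a pair was not run.

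Few of these genes were called after treatment with cantharidin sodium, which does not show that the others were unchanged. In AGS, 4 of 40 were called higher and 0 lower by edgeR, against 20.8% of all tested genes (9.21% higher and 11.6% lower), and 7 had an unadjusted p under 0.05. The median log2 change of the 40 genes was 0.06, with 21 genes above 0 and 19 below. The share of higher calls was near that of all genes. By library ranges, 8 of the 40 tested genes lay higher and 3 lower after treatment, against 25.6% and 26.8% of all tested genes. With no filter, 3 of 61 were called higher and 1 lower, against 4.95% and 7.57%.

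The genes that rose in AGS came from 3 families. H2AC6 went from 4.51, 5.57 and 4.95 CPM untreated to 9.42, 8.15 and 9.39 CPM treated, with no overlap (1.80-fold, log2 0.85, SE 0.22, edgeR adjusted p = 0.0172). H4C15 went from 2.40, 2.51 and 2.23 CPM to 4.26, 3.92 and 4.28 CPM (1.74-fold, log2 0.80, SE 0.22, edgeR adjusted p = 0.0213). Its near copy H4C14 was likewise separated, at 2.20, 2.57 and 2.16 CPM against 4.23, 3.33 and 3.55 CPM, but was not called (log2 0.68, SE 0.26, edgeR adjusted p = 0.0781). Reads of H4C14 and H4C15 cannot be told apart over most of their models, and 94.9% and 97.1% of their 100-base windows are shared.

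H2BC9 went from 0.669, 0.571 and 0.693 CPM to 1.28, 0.954 and 1.01 CPM (log2 0.74, SE 0.24, edgeR adjusted p = 0.0464). H2AC13 was called on few reads, 11 counts untreated and 33 treated. Its levels were 0.0984, 0.0571 and 0.103 CPM untreated and 0.334, 0.361 and 0.224 CPM treated (log2 1.77, SE 0.44, edgeR adjusted p = 0.0146), and its model shares 57.7% of its 100-base windows with H2AC14. Each of the 4 calls was lost in some edgeR fits that left out 1 library. Without AGS untreated or treated replicate 1 or 3, adjusted p reached 0.0682 for H2AC6. It reached 0.0796 for H4C15 without AGS untreated replicate 1 or 3 or any treated AGS library, and 0.0602 for H2AC13 without AGS untreated or treated replicate 2. For H2BC9 it reached 0.162, and the call was lost without any of the 6 AGS libraries in turn. The H2BC9 call was also lost with DESeq2 (adjusted p = 0.0588) and limma voom (adjusted p = 0.0712). In edgeR it was lost with no filter (adjusted p = 0.0822) and with a replicate block (adjusted p = 0.0567). The H2AC6 call was lost with limma voom (adjusted p = 0.0584).

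Other genes with separated libraries in AGS did not pass the test. H2AC18 gave 2.36, 2.34 and 2.33 CPM untreated and 1.95, 1.26 and 1.51 CPM treated (log2 -0.58, SE 0.27, edgeR adjusted p = 0.147). It and its near copy H2AC19 were called lower when the AGS libraries were fitted alone (edgeR adjusted p = 0.0356 and 0.0485). That fit called 8368 of 17345 tested genes, 4328 of them lower. H2BC4, which lies head to head with H2AC6, gave 0.669, 0.657 and 0.641 CPM untreated and 0.517, 0.258 and 0.335 CPM treated (log2 -0.84, SE 0.39, edgeR adjusted p = 0.147). H2BC10 did not pass the filter: it had 13 counts over the untreated AGS libraries and none over the treated ones, at least 3.73-fold lower against a floor of 3 counts over the group, and it was called lower in the fit with no filter (edgeR adjusted p = 0.00822).

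In MKN1, 0 of the 40 genes were called by edgeR, against 6.7% of all tested genes (2.8% higher and 3.9% lower), and 5 had an unadjusted p under 0.05. DESeq2 and limma voom called 1 gene each, H3C6. The median log2 change of the 40 genes was 0.03, with 22 above 0 and 18 below. By library ranges, 2 of the 40 tested genes lay higher and 1 lower, against 9.95% and 11.4% of all tested genes. With no filter 0 of the 61 were called, against 1.28% higher and 1.64% lower over all genes. H3C6 gave 3.50, 2.73 and 3.74 CPM untreated and 4.79, 6.76 and 5.68 CPM treated, with no overlap (log2 0.79, SE 0.22, edgeR adjusted p = 0.0525). H2AC6, by contrast, gave 65.9, 60.5 and 56.7 CPM untreated and 37.9, 78.7 and 66.5 CPM treated, ranges that overlapped (log2 0.00, SE 0.20, edgeR adjusted p = 0.999).

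The treated MKN1 libraries were spread widely in several genes, with no test of differences among them. Treated replicate 1 was the lowest of the 6 MKN1 libraries in 20 of the 40 genes, and treated replicate 3 the highest in 16. H1-2 gave 39.9, 48.3 and 72.2 CPM in the treated libraries and H2BC8 2.94, 6.23 and 12.8 CPM. Genes of RNAs without a poly(A) tail, other than histones, summed to 82.5, 24.2 and 34.5 CPM in the same 3 libraries, with the highest sum in the library of the lowest histone sum. That value was mostly the 7SL genes RN7SL2 (52.7 CPM) and RN7SL1 (19.2 CPM), while SNORD3A gave 3.46, 3.05 and 4.42 CPM and SNORA73B 1.82, 2.36 and 2.11 CPM. Their part in the result was not tested. Without treated replicate 3, H2BC12 and H2BC11 were called lower (adjusted p = 0.0281 and 0.0419 by edgeR), and without untreated replicate 3, H3C6 and H4C5 were called higher (adjusted p = 0.0318 and 0.0433 by edgeR).

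**Figure D4:**
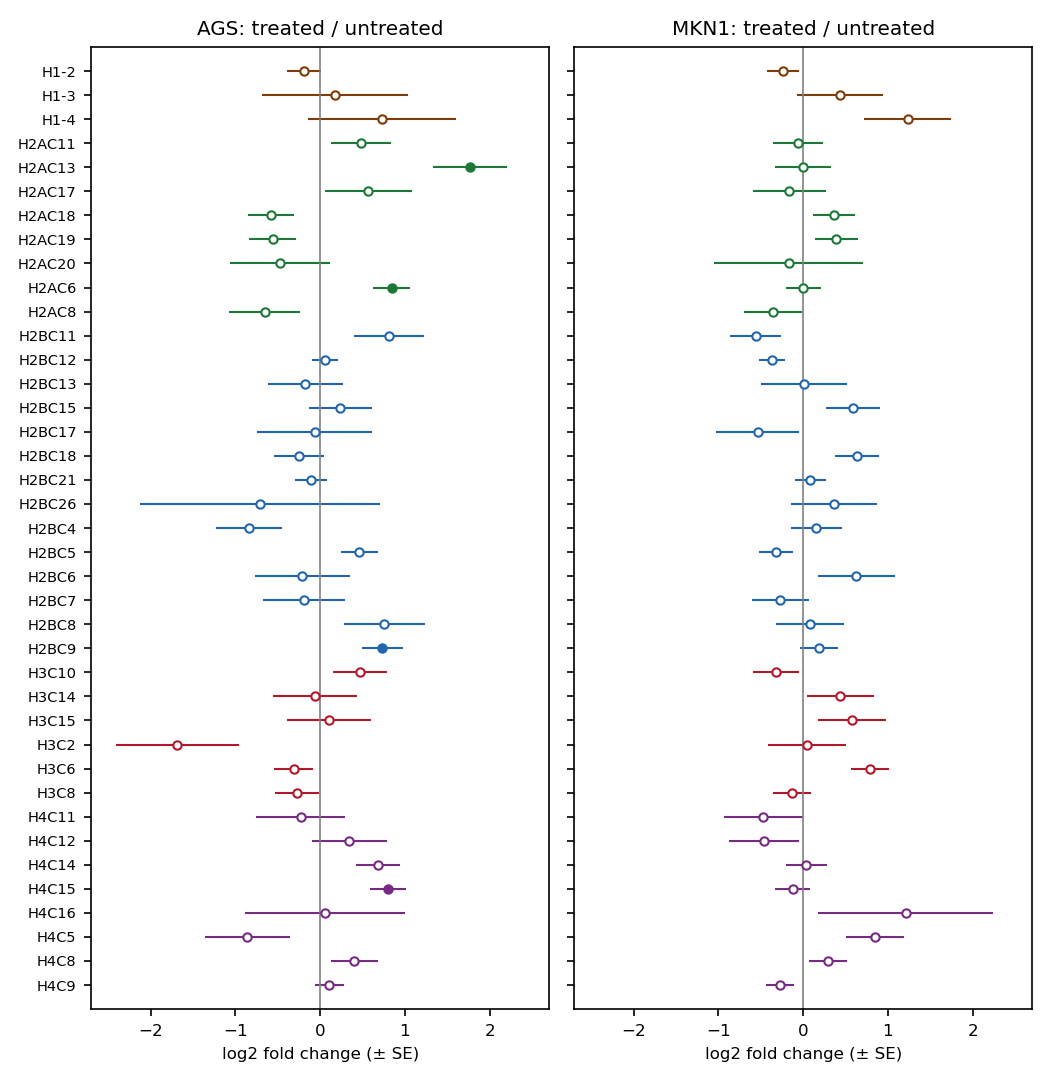
Log2 fold change of treated over untreated libraries with its SE in AGS (left) and MKN1 (right) for 39 tested genes, coloured by family as in the plot of family sums, filled where adjusted p was under 0.05. H2AC25 is left out because untreated AGS held no count. In AGS 4 points are filled and all lie right of 0, and no point is filled in MKN1.

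The test of whether the treatment effect differed between the lines called 2 of the 40 genes, 1 in each direction, against 15.7% of all tested genes (8.38% higher and 7.3% lower). With no filter it called 2 of 61 higher, H3C6 among them and H2BC10 with its 0 counts in treated AGS, and 0 lower, against 5.61% and 3.84%. For H3C6 the effect in MKN1 exceeded that in AGS by 1.10 on the log2 scale (SE 0.32, edgeR adjusted p = 0.0338). In AGS its levels were 2.15, 2.40 and 2.80 CPM untreated and 2.40, 1.81 and 1.71 CPM treated, which overlapped. For H2AC13 the effect in MKN1 was below that in AGS, by a log2 difference of -1.77 (SE 0.55, edgeR adjusted p = 0.0451), with overlapping libraries in MKN1 at 0.985, 0.547 and 0.889 CPM untreated and 0.637, 0.886 and 0.900 CPM treated. For H2AC6 the difference was -0.85 (SE 0.30, edgeR adjusted p = 0.0723) and for H4C15 -0.92 (SE 0.30, edgeR adjusted p = 0.0533), so their AGS effects were not shown to differ from those in MKN1. Both calls were lost with a replicate block (adjusted p = 0.0543 for H3C6 and 0.0703 for H2AC13 by edgeR).

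**Figure D5:**
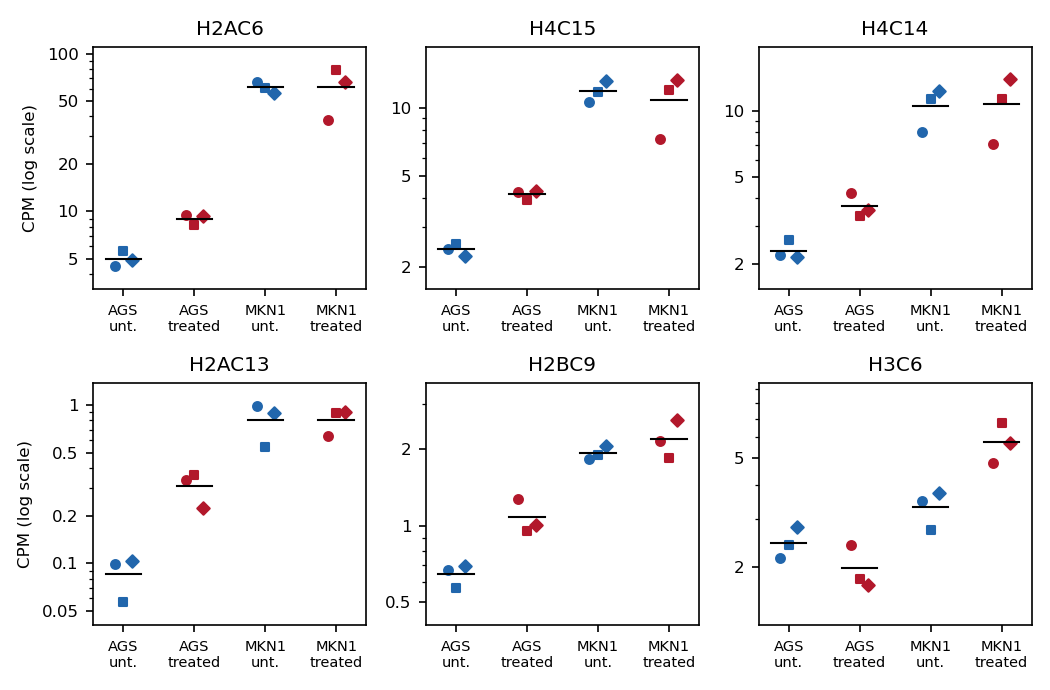
CPM (log axes, which differ between panels) of the 4 genes called in AGS, of H4C14 and of H3C6 in each library, untreated (unt., blue) and treated (red), with a circle, square and diamond for replicates 1, 2 and 3 and a black line at the mean. H2AC6, H4C15, H4C14, H2AC13 and H2BC9 are separated between untreated and treated AGS, and H3C6 between untreated and treated MKN1.

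The genes that act in the transcription, processing and decay of histone mRNA were called in both directions between the lines, at shares no higher than those of all genes. SLBP, the stem-loop binding protein, gave 97.4, 106 and 106 CPM in untreated AGS and 117, 111 and 94.1 CPM in untreated MKN1, which overlapped (log2 0.06, SE 0.11, edgeR adjusted p = 0.676). NPAT gave 36.5, 36.9 and 34.3 CPM against 41.6, 34.2 and 37.0 CPM (edgeR adjusted p = 0.725). Of 20 genes of this list, 5 were higher and 6 lower in untreated MKN1 (34.9% and 31.4% of all tested genes were), with a median log2 difference of -0.11 beside 0.04 for all genes. SYMPK, a scaffold of the cleavage complex, was lower (log2 -1.24, SE 0.11, edgeR adjusted p = 4.34e-07), and CSTF2, a cleavage factor subunit, was higher (log2 0.95, SE 0.10, edgeR adjusted p = 1.45e-06).

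After treatment 2 of the 20 were higher and 4 lower in AGS, where 9.21% and 11.6% of all tested genes were, and 0 were called in MKN1, where 6.7% of all tested genes were. SRRT, which links the cap-binding complex to RNA processing and decay, fell in AGS (log2 -1.27, SE 0.16, edgeR adjusted p = 0.000486), and its effect in MKN1 differed by 1.48 (SE 0.22, edgeR adjusted p = 0.00143). SYMPK also fell in AGS (log2 -0.48, SE 0.11, edgeR adjusted p = 0.00966). In MKN1 the smallest adjusted p values of the list were those of SLBP (log2 -0.28, SE 0.11, edgeR adjusted p = 0.140) and COIL (log2 -0.39, SE 0.16, edgeR adjusted p = 0.168). LSM10 had the next value after SRRT in the test of the difference between lines (log2 0.58, SE 0.22, edgeR adjusted p = 0.0929).

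Histone chaperones carry newly made histones to DNA. Of 20 genes, 2 were higher and 9 lower in untreated MKN1, against 34.9% and 31.4% of all tested genes, led by CABIN1 (log2 -1.73) and CHAF1A (log2 -1.13), with edgeR adjusted p of 1.55e-08 and 7.90e-07. In AGS 0 rose and 2 fell with treatment (9.21% and 11.6% over all genes), DAXX (log2 -0.62, SE 0.11, edgeR adjusted p = 0.00282) and CHAF1A (log2 -0.52, SE 0.11, edgeR adjusted p = 0.00560). In MKN1 0 rose and 1 fell (2.8% and 3.9% over all genes), ASF1B (log2 -0.60, SE 0.16, edgeR adjusted p = 0.0441), beside CHAF1B (log2 -0.43, SE 0.13, edgeR adjusted p = 0.0673). The DAXX effect differed between the lines by 0.53 (SE 0.16, edgeR adjusted p = 0.0370), and that of NAP1L4 by 0.34 (edgeR adjusted p = 0.0793).

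The replication-independent variants, whose transcription is as a rule not limited to S phase, had the higher sum in AGS. They summed to 3003.2 ± 207.1 CPM (SD, n = 3) in untreated AGS and to 1623.7 ± 104.9 CPM in untreated MKN1, and 2 of 12 were higher and 7 lower in MKN1, against 34.9% and 31.4% of all tested genes. H3-3A, which encodes H3.3, was lower (log2 -1.56, SE 0.15, edgeR adjusted p = 9.06e-07), and MACROH2A2, which encodes a large H2A variant, was higher (log2 4.79, SE 0.36, edgeR adjusted p = 7.77e-08). With treatment 4 rose and 4 fell in AGS, against 9.21% and 11.6% of all tested genes. In MKN1 0 rose and 2 fell, against 2.8% and 3.9%. The linker variant H1-10 rose in AGS (log2 0.49, SE 0.13, edgeR adjusted p = 0.0194) and fell in MKN1 (log2 -0.69, SE 0.13, edgeR adjusted p = 0.0125), and this difference passed the test itself (log2 -1.17, SE 0.19, edgeR adjusted p = 0.00174). H2AZ2 fell in AGS (log2 -0.44, edgeR adjusted p = 0.0181), and H3-3B, the other H3.3 gene, fell in MKN1 (log2 -0.53, edgeR adjusted p = 0.0450) with a difference between lines of -1.01 (edgeR adjusted p = 0.00557).

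Genes of DNA replication and S phase were more often called lower than higher in untreated MKN1. Of 38, 4 were higher and 20 lower, against 34.9% and 31.4% of all tested genes, and the median log2 difference was -0.41 beside 0.04 for all genes. CDT1, a licensing factor, and GINS1, a subunit of the replicative helicase, were lower by log2 changes of -1.70 and -1.72 (edgeR adjusted p = 7.41e-08 and 1.80e-07). With treatment 0 rose and 13 fell in AGS (9.21% and 11.6% over all genes), and 0 rose and 9 fell in MKN1 (2.8% and 3.9% over all genes). CDT1 (log2 -0.70, edgeR adjusted p = 0.00257) and the thymidine kinase gene TK1 (log2 -0.94, edgeR adjusted p = 0.00301) fell in AGS. The DNA ligase gene LIG1 (log2 -0.97, edgeR adjusted p = 0.00620) and E2F1 (log2 -0.89, edgeR adjusted p = 0.00697) fell in MKN1. The E2F1 effect differed between the lines (log2 -0.82, edgeR adjusted p = 0.0219), and that of CCNE2 was not called (log2 -1.27, edgeR adjusted p = 0.0652).

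Other RNAs known to lack a poly(A) tail were measured beside the histone genes. Of 24 listed genes 22 were measured, and RNU6ATAC and VTRNA1-1 were not analysed here. The 22 summed to 22.7, 35.9 and 26.3 CPM in untreated AGS and to 43.1, 29.1 and 19.5 CPM in untreated MKN1, ranges that overlapped, unlike the histone sums. RN7SL2 and RN7SL1 made up most of these sums, with means of 11.1 and 6.82 CPM in untreated AGS and 16.4 and 6.89 CPM in untreated MKN1. What this means for the histone genes was not tested. Of the 9 tested, too few to read against the 34.9% and 31.4% of all tested genes, 2 were higher and 4 lower in untreated MKN1, among them the U5 RNA gene RNU5A-1 (log2 -3.85, edgeR adjusted p = 0.000537) and RPPH1, the RNA of RNase P (log2 -2.72, edgeR adjusted p = 0.00226), both lower. With treatment 2 rose and 4 fell in AGS (9.21% and 11.6% over all genes), where SNORA73B rose (log2 1.01, edgeR adjusted p = 0.00602) and RNU5A-1 fell (log2 -2.90, edgeR adjusted p = 0.00807). In MKN1 2 rose and 0 fell (2.8% and 3.9% over all genes), SNORD3A (log2 1.56, edgeR adjusted p = 0.0300) and SNORD17 (log2 0.88, edgeR adjusted p = 0.0400). The effect differed between the lines for SNORD3A (log2 3.18, edgeR adjusted p = 0.00236) and SCARNA13 (log2 -2.60, edgeR adjusted p = 0.0134). Some of these RNAs lie inside host genes, and reads of the host could count for them.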

How the data were processed

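RNA of 12 libraries in 4 groups of 3 was measured. Per the labels' protocols, TRIzol was used for extraction and the NEBNext Ultra RNA kit, which does not mark strand, for libraries of fragmented mRNA. The aligner was HISAT2 2.0.4 and the build hg38/GRCh38, per the submitters' processing notes. The sources used here do not give the counting tool, its annotation, or its use of strand and of reads that fit several genes. The authors deposited raw counts for each gene, with no normalization.

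Identifiers were named from the RefSeq gene table, and 4 of the 61 histone genes through an older symbol. edgeR 4.0.16 in R 4.3.3 fitted all libraries together, with filterByExpr (20280 genes left) and TMM scaling. Quasi-likelihood F tests, two-sided, were adjusted by Benjamini-Hochberg over all tested genes at 0.05. Residual degrees of freedom were 8 and prior ones 4.91, and the method was tested on simulated data. CPM values scale counts by the TMM-scaled library total. A floor of 3 counts stands for 0 and covers counting error only. Lengths, stem-loops and 100-base windows came from GENCODE 29 and promoters from RefSeq (GRCh38.p14). Alternatives were other scalings, DESeq2 1.42.0, limma 3.58.1 (voom), other filters, a replicate block, the groups of a contrast alone, each library left out, and near-identical copies summed, which was chosen after seeing the data. The histone genes and the gene lists were chosen with earlier results of these data known. Full statistics went to at most 15 called members per contrast by adjusted p, library values to the 3 highest genes of each family and to called genes, and the 2 smallest adjusted p of each list and contrast were named, with SLBP and NPAT in any case. Some further histone genes, such as H2BC8, H2BC10, H2BC13, H4C5, H4C14 and H4C16, were described after their values were seen.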

Additional observations from a re-analysis of the deposited data

Results flagged for a closer look

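H2AC13 and H3C6 passed the edgeR test of the difference between the treatment effects of the 2 lines. The MKN1 effect of H2AC13 minus its AGS effect was -1.77 on the log2 scale (SE 0.55, edgeR adjusted p = 0.0451), where AGS changed by 1.77 and MKN1 by 0.00. It was called in 4 of 20 alternatives, with adjusted p between 0.0362 and 0.108. For H3C6 the difference was 1.10 (SE 0.32, edgeR adjusted p = 0.0338), where MKN1 changed by 0.79 and AGS by -0.31, and it was called in 12 of 21 alternatives, with adjusted p between 0.0118 and 0.0865.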

How the results depend on the processing

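The line difference of the histone genes kept its count: between 27 and 36 of them were called in the 22 alternatives, and 34 to 36 without 1 library. No named histone gene was called in opposite directions, but in MKN1 2 were called higher (H3C6 and H4C5) without untreated replicate 3 and 2 others lower (H2BC12 and H2BC11) without treated replicate 3. With limma voom 2 histone genes were called in AGS, 1 in MKN1 and 1 in the difference between lines. Library totals as the scaling gave 1 in MKN1 and 1 in the difference, and turned the majority of calls over all genes in MKN1 from lower (567 higher and 791 lower) to higher (754 and 543), or from 41.8% to 58.1% higher. DESeq2 gave 1 in MKN1 and 2459 genes in all there, a minimum of 1 CPM in 3 libraries gave 1 in MKN1, and no filter gave 834 genes in all in MKN1. With only the groups of the contrast fitted, 8368 of 17345 tested genes were called in AGS (4040 higher and 4328 lower) and 34 in MKN1. Of the histone genes, 4 were called higher and 2 lower of 27 tested in AGS, and 0 of 37 were called in MKN1. The difference between lines uses all groups and has no such value. Upper-quartile and DESeq2 factors moved the median of all genes between the lines from 0.04 to 0.12 and 0.11.

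Without 1 library, the histone calls ranged from 1 to 4 in AGS, from 0 to 2 in MKN1 and from 0 to 5 in the difference, and the calls over all genes from 2051 to 5533, from 336 to 3160 and from 2098 to 4643. The value of 336 came without MKN1 untreated replicate 2 and that of 3160 without MKN1 untreated replicate 3. Of the results for named genes, 509 kept their side of the threshold, 64 were no longer called and 9 became called; H4C14 was called in AGS once near-identical copies were summed (log2 0.74, edgeR adjusted p = 0.0280).

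Deviations of libraries with the same replicate number correlated at 0.03, 0.08 and -0.05 in AGS and 0.13, -0.05 and 0.22 in MKN1, so the numbers were not taken to pair the libraries. With a replicate block the histone calls were 3 in AGS, 0 in MKN1, 0 in the difference and 36 between the lines, and those over all genes 4067, 1140, 3089 and 13427. Few counts limit genes such as H1-3 and H2AC13 in AGS.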
